A study of Saccharomyces cerevisiae with 19 samples.

Results

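The genes described here encode the aminoacyl-tRNA synthetases of budding yeast, the enzymes that attach each amino acid to its tRNA. The 35 genes, of 5758 gene identifiers in the count tables, were chosen by name and not by their values, though earlier results of these data were known. They fall into 21 whose enzyme works in the cytosol and 14 whose enzyme works in the mitochondrion. Of the 21, 5 were listed as also supplying the mitochondrion. The samples were 19 libraries from wild-type BY4741, a MATa laboratory strain, and every library shares its auxotrophic deletions in URA3, LEU2, MET17 and HIS3. Cells grew in YPD, a rich glucose medium, to an OD600 of 0.4 and were treated with cycloheximide for 1 min. Ribosome profiling, which sequences the mRNA fragments covered by ribosomes (footprints), was done in 13 libraries, and mRNA-seq in 6. For the footprint libraries cycloheximide at lysis was 100 ug per ml and footprints were 28 to 32 nt long. No such values are recorded here for mRNA-seq. The preparations Nonrandom, 4N and 4+3N were each used for 2 footprint and 2 mRNA libraries. Footprints were also prepared as DualLigation (3 libraries) and in low versions of Nonrandom and of 4+3N (2 libraries each). The preparations differ in whether the linker and the reverse transcription primer hold random bases. What low stands for is not given in the sources used here, and the labels carry 1 protocol text for every library. No label says that replicates came from separate cultures, so p-values measure only the spread between these libraries, which may be technical.

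Each synthetase activates its amino acid with ATP and transfers it to the matching tRNA. The enzymes form 2 structural classes, class I and class II, with unrelated catalytic folds. In yeast all of them are encoded in the nucleus. The mitochondrial enzymes are imported and charge the tRNAs used to translate the few proteins encoded by mitochondrial DNA. For Ala, Cys, Gly, His and Val a single gene (ALA1, CRS1, GRS1, HTS1 and VAS1) makes both the cytosolic and the mitochondrial form. Mitochondrial Gln-tRNA is made by another route, in which an amidotransferase converts Glu that was attached to the Gln tRNA. The cytosolic phenylalanyl enzyme is the only one built from 2 different subunits, FRS1 and FRS2.

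Counted reads per library ran from 827353 to 13478946 in ribosome profiling and from 1838817 to 3497303 in mRNA-seq. The 3 counts that a count of 0 allows came to 0.223 to 3.63 CPM (the reads of a gene, scaled to an equal total per library) in the footprint libraries and 0.858 to 1.63 in the mRNA libraries. In the 6 standard footprint libraries (Nonrandom, 4N and 4+3N) a cytosolic member had 2371 to 21055 reads and a mitochondrial one 69 to 318, against 634 to 6022 and 33 to 253 in mRNA-seq. Values for the mitochondrial genes therefore carry more counting error. In the low libraries a mitochondrial member had as few as 5 reads. The mating type markers matched a MATa strain in every library (summed a-cell markers 385 to 1663 CPM, summed alpha-cell markers up to 17.6). URA3 and MET17 had 0 reads and LEU2 had 1 read over all libraries, while HIS3, which keeps part of its sequence in this strain background, had 58.3 to 123 CPM. The tables of DualLigation and of the low libraries list genes in an order different from that of all other tables, and DualLigation held the lowest a-cell marker sums (385 to 716). All 35 members matched the R64 annotation (the sacCer3 build that the submitters name), and none overlapped another annotated gene. Coding lengths were 1185 to 3315 bases in the cytosolic set (median 2004) and 1140 to 3009 in the mitochondrial set (median 1669.5). The asparaginyl gene DED81 (YHR019C, chromosome VIII, 141894 to 143558) and the prolyl gene YHR020W (chromosome VIII, 143996 to 146062) are the only adjacent members, 437 bases apart. The members were listed in every library except DIA4, which had 0 reads in DualLigation replicate 3.

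The cytosolic genes were far above the mitochondrial genes in every library, and the distance was wider in footprints than in mRNA. Together the 21 cytosolic genes took 2.08% ± 0.0414 (SD, n = 6) of the counted reads in the standard footprint libraries and 1.63% ± 0.0308 (n = 6) in mRNA-seq. The 14 mitochondrial genes took 0.0248% ± 0.00116 of the footprint reads and 0.0644% ± 0.00264 of the mRNA reads. So the cytosolic share was higher in footprints than in mRNA and the mitochondrial share lower, with no overlap between assays for either set. Each value is a share of a bulk library, in which fewer cells with an RNA and less RNA per cell cannot be told apart.

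Per kilobase of coding length, the median cytosolic gene had 414 ± 15.5 CPM in footprints and the median mitochondrial gene 10.01 ± 0.647 (SD, n = 6), with the median of all listed genes at 30.6 ± 0.985. In mRNA the same medians were 320 ± 4.97, 24.8 ± 1.08 and 46.3 ± 1.26 (n = 6). The ratio of the 2 set medians was 37.0 to 43.5 in the 6 footprint libraries (mean 41.5 ± 2.32) and 12.4 to 13.7 in the 6 mRNA libraries (mean 12.9 ± 0.508). This ratio is taken within a library, so it does not depend on how libraries are scaled. The lowest cytosolic gene lay above the highest mitochondrial gene in 19 of 19 libraries, by 3.26 to 4.21 times in mRNA-seq, 8.90 to 10.4 times in the standard footprint libraries, 7.09 to 8.61 times in the low libraries and 2.65 to 4.31 times in DualLigation.

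**Figure D1:**
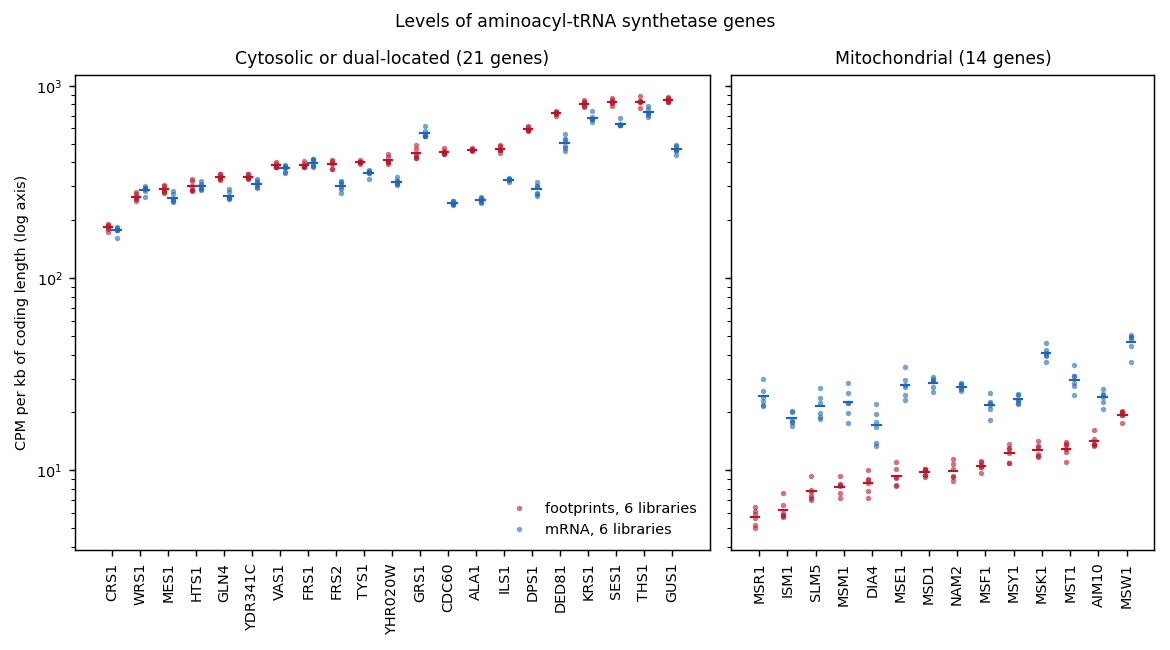
CPM per kb of coding length (log axis) for the 21 cytosolic or dual-located and the 14 mitochondrial synthetase genes, ordered by footprint level. Points are the 6 standard footprint libraries (red) and the 6 mRNA libraries (blue), and lines are means. Cytosolic genes lie above all mitochondrial genes in both assays. Every mitochondrial gene has its footprint points below its mRNA points on these library totals, where the all-gene median is also lower in footprints. With TMM scaling the assays overlap for AIM10 and DIA4.

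Within the cytosolic set, footprint levels per kb spanned 4.60 times, from CRS1 (the cysteinyl enzyme) at 183.6 to GUS1 (glutamyl) at 845.3 CPM per kb. The next highest were THS1 (threonyl) at 826, SES1 (seryl) at 825 and KRS1 (lysyl) at 807, and these neighbours lay within each other's spread over libraries, as the plot of levels shows. All 21 ranked between the 85.6th and the 96.2nd percentile of the listed genes in footprints, and between the 85.1st and the 96.3rd in mRNA. In mRNA the lowest was again CRS1 (177 CPM per kb) and the highest THS1 (729). The mitochondrial set spanned 3.41 times in footprints, from MSR1 (arginyl) at 5.71 to MSW1 (tryptophanyl) at 19.5 CPM per kb, at the 15.7th to the 38.9th percentile. In mRNA it ran from DIA4 (seryl) at 17.3 to MSW1 at 46.3, at the 18.1st to the 50.7th percentile. MSW1 was thus the highest mitochondrial gene in both assays. Across genes, the footprint level followed the mRNA level with a Spearman rho of 0.640 among the 21 cytosolic and 0.604 among the 14 mitochondrial genes. These are descriptions over genes from the same 12 libraries.

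For 14 amino acids the cytosol and the mitochondrion have separate genes, which gives 15 pairs because FRS1 and FRS2 share the mitochondrial partner MSF1. In every pair the cytosolic gene was higher per kb, and in all 15 pairs its lead was larger in footprints than in mRNA, with no overlap between the 6 footprint and the 6 mRNA libraries. Pair ratios ran from 13.6 to 96.9 in footprints (median 59.4) and from 6.29 to 38.0 in mRNA (median 15.1). The mean footprint ratio exceeded the mean mRNA ratio by 1.98 times (FRS1 to MSF1) to 6.03 times (DPS1 to MSD1), with a median of 2.98.

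The widest gap in footprints was for serine, where SES1 was 96.9 ± 9.15 times DIA4 (82.4 to 108.5 over 6 libraries) in footprints and 38.0 ± 8.20 times (28.7 to 49.2) in mRNA. For asparagine, DED81 was 93.3 ± 8.29 times SLM5 (79.1 to 103) in footprints and 23.6 ± 3.20 times (19.8 to 28.3) in mRNA. For glutamate, GUS1 was 91.0 ± 9.05 times MSE1 (77.8 to 102.6) in footprints and 17.1 ± 2.69 times (13.3 to 21.1) in mRNA. These top 3 pairs were not separated from each other in footprints, since their ranges overlapped. The narrowest gap was for tryptophan, with WRS1 at 13.6 ± 0.837 times MSW1 (12.7 to 15.1) in footprints and 6.29 ± 0.967 times (5.35 to 8.03) in mRNA. For proline, YHR020W was 29.1 ± 2.77 times AIM10 (24.8 to 32.1) in footprints and 13.3 ± 1.17 times (12.2 to 15.4) in mRNA. For tyrosine, TYS1 was 32.9 ± 3.22 times MSY1 (29.4 to 36.9) in footprints and 15.1 ± 1.00 times (14.1 to 16.5) in mRNA. The tryptophan pair lay below all others in both assays, whereas the proline and tyrosine pairs overlapped in footprints. The aspartate pair differed most between assays, from 10.2 ± 1.03 in mRNA to 61.2 ± 2.87 in footprints.

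**Figure D2:**
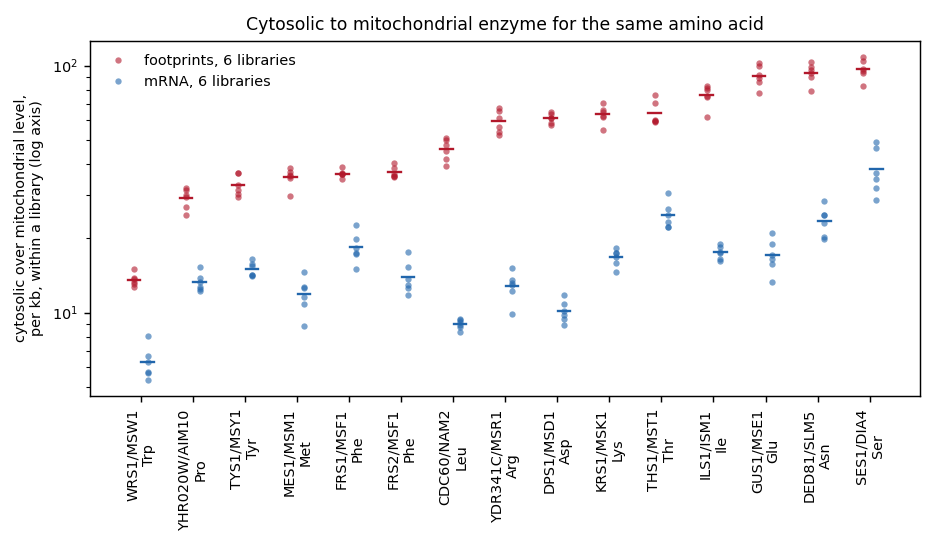
Level of the cytosolic over the mitochondrial synthetase gene for the same amino acid, per kb and within each library (log axis), for 15 pairs. Points are the 6 standard footprint libraries (red) and the 6 mRNA libraries (blue), and lines are means. In each pair all footprint points lie above all mRNA points.

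The footprint to mRNA ratio of each gene, often called translation efficiency, was tested in 1 model over the 6 standard footprint and 6 mRNA libraries, as the mean of the 3 preparations. Of the 21 cytosolic genes 21 had a higher ratio than the average set by TMM scaling, and of the 14 mitochondrial genes 14 had a lower one (edgeR quasi-likelihood test, Benjamini-Hochberg adjusted p under 0.05). Of all 5523 genes tested, 40.2% passed as higher and 44.5% as lower, so passing is common (84.7% in either direction) and the one-sided split within each set is what differs from the background. The median log2 ratio was 0.79 in the cytosolic set, -0.90 in the mitochondrial set and -0.04 over all genes. Cytosolic members stood between the 61.8th (GRS1) and the 98.0th percentile (DPS1) of all tested ratios, and mitochondrial members between the 12.0th (MSR1) and the 42.8th (AIM10). The sets also differ in mRNA level, and over the 35 members the ratio rose with it (Spearman rho 0.683). Within the sets rho was -0.104 (cytosolic) and -0.235 (mitochondrial). Other genes of similar mRNA level were not compared.

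The zero point of this ratio depends on the scaling. With plain library totals the median of all genes moved by 0.55, from -0.04 to -0.59, and of the cytosolic genes 15 then passed as higher while WRS1 (log2 ratio -0.12) and GRS1 (-0.35) passed as lower and FRS1 lay at -0.047. The split of all calls moved with it, from 2221 higher and 2456 lower to 956 higher and 3854 lower. Relative to the median of all genes the placing did not move: 21 cytosolic genes lay above it and 14 mitochondrial genes below it under each of the 20 settings run, library totals included. A change of scaling shifts all genes by nearly the same amount. The scaling settings could therefore hardly have moved this placing, and only the other settings test it. TMM-scaled values were also compared without a model, so the counts that follow share the TMM zero point. They were not made with library totals. All 6 footprint libraries lay above all 6 mRNA libraries for 20 of 21 cytosolic genes (33.6% of all genes). They lay below them for 12 of 14 mitochondrial genes (37.5% of all genes). The exceptions with overlap were GRS1, DIA4 and AIM10.

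The values below are TMM-scaled CPM in this model, given as lowest, median and highest over 6 libraries. DPS1, the aspartyl enzyme (YLL018C, chromosome XII, 109902 to 111575), had 1155, 1202 and 1281 in footprints and 374, 397 and 439 in mRNA. CDC60, the leucyl enzyme (YPL160W, chromosome XVI, 246990 to 250262), had 1721, 1816 and 1827 in footprints and 639, 661 and 688 in mRNA. ALA1, the alanyl enzyme of both compartments (YOR335C, chromosome XV, 946233 to 949109), had 1561, 1598 and 1704 in footprints and 588, 604 and 629 in mRNA. In these 3 genes the lowest footprint library was more than double the highest mRNA library. Their log2 ratios were the highest among the members, at 1.59 (SE 0.05, edgeR adjusted p = 9.62e-16) for DPS1, 1.44 (SE 0.05, adjusted p = 9.74e-16) for CDC60 and 1.42 (SE 0.05, adjusted p = 1.23e-15) for ALA1. GUS1 followed at 1.41 (SE 0.05), within the error of the 2 before it.

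At the other end of the cytosolic set, GRS1, the glycyl enzyme of both compartments (YBR121C, chromosome II, 481364 to 483367), had 1030, 1072 and 1162 in footprints and 885, 926 and 1036 in mRNA. WRS1, the tryptophanyl enzyme (YOL097C, chromosome XV, 136527 to 137825), had 391, 416 and 430 in footprints and 294, 308 and 328 in mRNA. FRS1 (YLR060W, chromosome XII, 260979 to 262766) had 812, 838.5 and 847 in footprints and 554, 593 and 612 in mRNA. The assays overlapped for GRS1 and were apart for WRS1 and FRS1. Log2 ratios were 0.20 (SE 0.05, edgeR adjusted p = 0.000763) for GRS1, 0.43 (SE 0.04, adjusted p = 2.37e-08) for WRS1 and 0.50 (SE 0.04, adjusted p = 3.21e-09) for FRS1, and these are the 3 that fell below 0 with library totals.

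Among the mitochondrial genes, MSR1, the arginyl enzyme (YHR091C, chromosome VIII, 284839 to 286770), had 12.1, 13.2 and 15.2 in footprints and 35.1, 37.0 and 47.7 in mRNA. MSK1, the lysyl enzyme (YNL073W, chromosome XIV, 488386 to 490116), had 23.9, 26.8 and 29.9 in footprints and 53.3, 58.2 and 64.6 in mRNA. ISM1, the isoleucyl enzyme (YPL040C, chromosome XVI, 475993 to 479001), had 20.9, 22.1 and 26.8 in footprints and 43.5, 45.6 and 49.9 in mRNA. Every footprint library was below every mRNA library in these 3 genes. Their log2 ratios were -1.53 (SE 0.09, edgeR adjusted p = 7.30e-12) for MSR1, -1.12 (SE 0.07, adjusted p = 1.62e-11) for MSK1 and -1.04 (SE 0.08, adjusted p = 4.37e-10) for ISM1.

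The mitochondrial genes closest to the average were AIM10, MSY1 and DIA4. AIM10, annotated as a probable prolyl enzyme (YER087W, chromosome V, 330576 to 332306), had 27.8, 29.0 and 32.8 in footprints and 30.6, 34.8 and 38.4 in mRNA. MSY1, the tyrosyl enzyme (YPL097W, chromosome XVI, 364952 to 366430), had 19.2, 22.3 and 25.4 in footprints and 26.9, 28.5 and 31.0 in mRNA. DIA4 (YHR011W, chromosome VIII, 127780 to 129120) had 12.1, 14.1 and 15.9 in footprints and 15.3, 18.95 and 24.6 in mRNA. The assays overlapped for AIM10 and DIA4 and were apart for MSY1. Their log2 ratios were -0.22 (SE 0.08, edgeR adjusted p = 0.0166) for AIM10, -0.38 (SE 0.09, adjusted p = 0.000507) for MSY1 and -0.46 (SE 0.12, adjusted p = 0.00177) for DIA4. AIM10 did not pass without Nonrandom footprint replicate 1 (adjusted p = 0.0517), without 4N mRNA replicate 1 (0.0902) or without Nonrandom mRNA replicate 2 (0.0586). DESeq2 did not call it either (adjusted p = 0.0914).

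**Figure D3:**
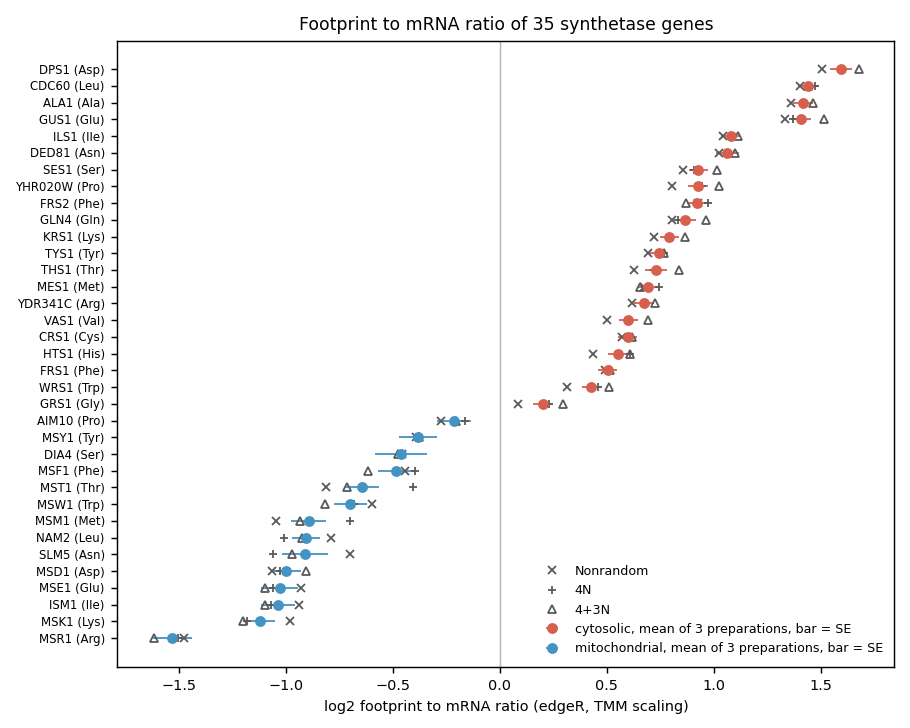
Log2 footprint to mRNA ratio of the 35 synthetase genes (horizontal axis, TMM scaling), with the amino acid of each in brackets. Circles are means of 3 preparations with the edgeR standard error, and crosses, plus signs and triangles are the values of Nonrandom, 4N and 4+3N. All 21 cytosolic genes lie right of 0 and all 14 mitochondrial genes left of it in each preparation, while library totals move GRS1, WRS1 and FRS1 below 0.

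With TMM scaling, the sign of the ratio was the same in all 3 preparations for 21 cytosolic and 14 mitochondrial genes. Some of these values were small beside their error. GRS1 was 0.083 (SE 0.083) in Nonrandom, and AIM10 was -0.17 (SE 0.14) in 4N and -0.20 (SE 0.14) in 4+3N. In Nonrandom, 4N and 4+3N the set medians were 0.72, 0.79 and 0.86 (cytosolic) and -0.80, -0.85 and -0.92 (mitochondrial). The order of the genes was also close between preparations (Spearman rho 0.971 to 0.992 over 21 cytosolic genes and 0.807 to 0.969 over 14 mitochondrial genes, as a description). By structural class the median log2 ratio was 0.72 for the 10 class I and 0.92 for the 11 class II cytosolic genes, and -0.91 and -0.64 for the 7 and 7 mitochondrial genes. The ranges of the classes overlapped in both sets. Longer mitochondrial genes tended to lower ratios (Spearman rho -0.564 over 14 genes), while the same value was 0.197 over 21 cytosolic genes.

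The 5 genes listed as dual-located had log2 ratios from 0.20 (GRS1) to 1.42 (ALA1) with a median of 0.60. The other 16 cytosolic genes, GUS1 among them, ran from 0.43 (WRS1) to 1.59 (DPS1) with a median of 0.89. Whether any of these 16 also supply the mitochondrion was not examined, so the split is only that of the list. ALA1 and GRS1 are described above, and GRS1 lay below all of the other 16. VAS1, the valyl enzyme, had 1474, 1550 and 1633 scaled CPM in footprints and 959, 1022 and 1077 in mRNA. HTS1, the histidyl enzyme, had 574, 585 and 629.7 in footprints and 383, 409 and 441.5 in mRNA. CRS1 had 499, 512 and 523 in footprints and 318, 341 and 348.5 in mRNA. All 3 were apart between assays, with log2 ratios of 0.60 (SE 0.05), 0.55 (SE 0.05) and 0.60 (SE 0.04). With library totals none of the 3 passed, at 0.05, 0.00 and 0.05.

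The subunits of the cytosolic phenylalanyl enzyme, FRS1 and FRS2, are needed in equal numbers in the enzyme. Per kb, their mRNA ratio (FRS1 over FRS2) was 1.31 and 1.35 in the Nonrandom libraries, 1.29 and 1.37 with 4N, and 1.28 and 1.34 with 4+3N. Their footprint ratio was 0.950 and 1.02 in the Nonrandom libraries, 0.948 and 0.967 with 4N, and 1.02 and 1.03 with 4+3N. All footprint values lay below all mRNA values, near 1. The means were 0.989 ± 0.0388 in footprints and 1.32 ± 0.0350 in mRNA (SD, n = 6 each, exact permutation test p = 0.00216, the smallest that 6 against 6 libraries allow, and 0.00271 adjusted over 5 such ratios). Libraries were permuted freely here and for the ratios below. Equal replicate numbers deviated together within an assay, so the 6 libraries are not independent. The value near 1 did not hold in all preparations. It was 1.07 ± 0.0569 in Nonrandom low, 1.23 ± 0.0668 in 4+3N low (n = 2 each) and 0.343 ± 0.0847 in DualLigation (n = 3).

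**Figure D4:**
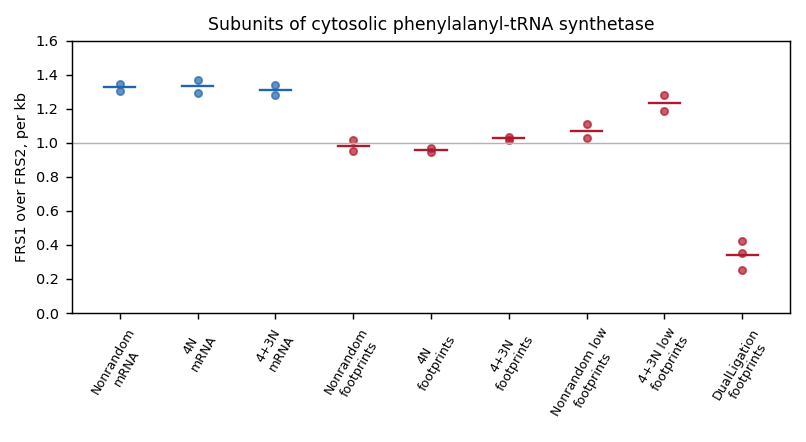
FRS1 over FRS2, per kb and within each library, by group (vertical axis from 0). Points are libraries, blue for mRNA and red for footprints, and lines are group means. The 6 standard footprint libraries lie between 0.948 and 1.03, the 6 mRNA libraries between 1.28 and 1.37, and the 3 DualLigation libraries between 0.255 and 0.424.

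ARC1, a cofactor that binds the methionyl enzyme MES1 and the glutamyl enzyme GUS1 in a complex, was compared in the same way. ARC1 over MES1 was 2.99 ± 0.169 in footprints and 1.99 ± 0.108 in mRNA, and GUS1 over MES1 was 2.93 ± 0.0784 and 1.79 ± 0.115 (n = 6 each, exact permutation p = 0.00216 and adjusted p = 0.00271 for both). ARC1 over GUS1 was 1.02 ± 0.0598 in footprints and 1.11 ± 0.0504 in mRNA, with overlap between assays (exact permutation p = 0.0152, adjusted p = 0.0152). In the low libraries ARC1 over GUS1 was 1.01 ± 0.00215 in Nonrandom and 0.977 ± 0.0944 in 4+3N (n = 2 each), and in DualLigation it was 0.695 ± 0.125 (n = 3), below all other libraries. GRS1 over GRS2, a second glycyl gene with related sequence whose reads the authors' counting could have divided, was 56.5 ± 2.48 in footprints and 35.8 ± 4.50 in mRNA (n = 6 each, exact permutation p = 0.00216, adjusted p = 0.00271).

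Other genes of tRNA charging and mitochondrial translation were taken as a list of 15, of which 5 had a higher and 7 a lower footprint to mRNA ratio and 3 did not pass, beside 40.2% higher and 44.5% lower among all genes. With library totals the counts were 2 higher, 11 lower and 2 not passing. The higher ones were RRF1, the mitochondrial ribosome recycling factor (log2 ratio 1.36, SE 0.11), ARC1 (1.28, SE 0.05), the elongation factors MEF1 (0.53, SE 0.06) and TUF1 (0.31, SE 0.04), and DTD1, which removes D-amino acids from tRNA (0.31, SE 0.07). With library totals RRF1 (0.81) and ARC1 (0.73) kept this direction and MEF1 (-0.02, adjusted p = 0.794), TUF1 (-0.23) and DTD1 (-0.24) did not, the last 2 passing as lower. The lower ones were HER2 (-1.07, SE 0.10) and PET112 (-0.99, SE 0.09), subunits of the amidotransferase for mitochondrial Gln-tRNA, MEF2 (-0.86, SE 0.10), the release factor MRF1 (-0.77, SE 0.09), the initiation factor IFM1 (-0.50, SE 0.10), GRS2 (-0.46, SE 0.08) and CCA1, which adds the CCA end to tRNAs (-0.27, SE 0.06). GTF1, the other amidotransferase subunit (0.09, adjusted p = 0.364), the formyltransferase FMT1 (0.30, adjusted p = 0.0501) and the initiation factor AIM23 (0.15, adjusted p = 0.147) did not pass in edgeR with TMM scaling. With library totals GTF1 (-0.46, edgeR adjusted p = 0.000170) and AIM23 (-0.40, adjusted p = 0.00156) passed as lower. So genes acting in the mitochondrion lay on both sides of the all-gene median in this list.

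No synthetase gene passed between Nonrandom, 4N and 4+3N in the fits without a replicate block. In footprints 0 of 35 members passed in 4N against Nonrandom, 4+3N against Nonrandom and 4+3N against 4N (0.133%, 0.304% and 0.114% of 5261 genes passed), and 0 had an unadjusted p under 0.05. In mRNA 0 of 35 passed in the same comparisons (0.185%, 0.222% and 0% of 5415 genes), and only MSM1, the mitochondrial methionyl gene, was under an unadjusted 0.05, for 4N against Nonrandom (log2 change -0.49, SE 0.15, edgeR adjusted p = 0.918). For the footprint to mRNA ratio 0 of 35 passed in 4N or in 4+3N against Nonrandom (0% and 0.0543% of 5523 genes), with MST1 alone under an unadjusted 0.05 (log2 difference 0.41, SE 0.18, edgeR adjusted p = 1.00). DESeq2 also called 0 members in each of these 8 comparisons. Log2 changes of members ran from -0.09 to 0.14 among cytosolic genes and from -0.19 to 0.09 among mitochondrial genes for 4+3N against Nonrandom in footprints. With the replicate number as a block, THS1 passed in that comparison (log2 change 0.14, SE 0.04, edgeR adjusted p = 0.0195), where 490 of 5261 genes (9.31%) passed. Cytosolic ratio differences to Nonrandom lay above 0 for 21 of 21 genes in 4N (median 0.07) and 19 of 21 in 4+3N (median 0.14). Mitochondrial ones did so for 6 of 14 (median -0.01) and 5 of 14 (median -0.14). Among all 5523 genes it was 2874 (median 0.008) and 2750 (median -0.0007). This was not tested, since members are not replicates. The comparisons with Nonrandom share its libraries.

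No synthetase gene passed between the low and the standard libraries of the same preparation. In Nonrandom low against Nonrandom 0 of 35 members passed (1.45% of 5174 genes did) and 0 had an unadjusted p under 0.05. In 4+3N low against 4+3N 0 of 35 passed (0.734% of genes). There MST1 (log2 change 0.60, SE 0.26, edgeR adjusted p = 0.396) and MSF1 (-0.77, SE 0.34, adjusted p = 0.425) had an unadjusted p under 0.05. Between 4+3N low and Nonrandom low, relative to their standard libraries, 0 of 35 passed (0.232% of genes), and 0 had an unadjusted p under 0.05. DESeq2 called 0 members in these 3 comparisons, but gave no adjusted p for the 14 mitochondrial genes in the first and second. Log2 changes in the cytosolic genes lay between -0.17 and 0.16 and in the mitochondrial genes between -0.77 and 0.60 over both low comparisons, so the mitochondrial values do not exclude changes of that size at 5 to 72 reads per gene and library.

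In DualLigation members of both sets moved in both directions. Of 35 members 25 passed against the 6 standard libraries in edgeR, when 65.7% of 5300 genes did (33.1% higher, 32.6% lower), so the share of members is near the background. Of the cytosolic genes 8 were higher, 6 lower and 7 did not pass, and of the mitochondrial genes 5 were higher, 6 lower and 3 did not pass. The set medians were 0.03 and -0.11 on the log2 scale, with all genes at -0.05. With library totals all genes moved to -0.71 and the split of all calls from 1753 higher and 1727 lower to 916 and 2918, and ILS1 (-0.02) and GRS1 (-0.18) then lay below 0, so single directions below are relative to the TMM average. No DualLigation mRNA library was part of these data, and whether the preparation or the handling of its tables goes with these values cannot be told apart.

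THS1, the threonyl enzyme (YIL078W, chromosome IX, 212499 to 214703), had 2244, 12750 and 19810 TMM-scaled CPM in DualLigation replicates 1, 2 and 3, against 1406 to 1636 in the 6 standard libraries. All 3 were above, replicate 1 by 1.44 times the standard mean and the others by 8.18 and 12.7 times. The log2 change was 2.90 (SE 0.50, edgeR adjusted p = 0.00111). ISM1 had 27.5, 71.8 and 112 against 14.7 to 18.99 (log2 change 2.14, SE 0.35, adjusted p = 0.000793). MSF1, the mitochondrial phenylalanyl enzyme, had 17.1, 52.0 and 74.4 against 12.1 to 13.5 (log2 change 1.91, SE 0.36, adjusted p = 0.00170). In both genes, too, replicate 1 lay closest to the standard libraries and all 3 were above them. Leaving out 1 library at a time, the log2 change was 2.27 to 3.39 for THS1, 1.65 to 2.52 for ISM1 and 1.47 to 2.31 for MSF1, and each passed in every case.

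The 8 members with the smallest p in this comparison were FRS2, WRS1, DED81, MSW1, SES1, MSE1, CDC60 and TYS1. FRS2 had 925, 983 and 1093 scaled CPM against 469 to 527 (log2 change 0.99, SE 0.10, edgeR adjusted p = 5.78e-05). WRS1 had 679.6, 1034 and 677 against 277 to 304 (1.44, SE 0.15), and DED81 had 1931, 1697 and 1797 against 970.5 to 1070 (0.82, SE 0.10). MSW1 had 50.2, 32.3 and 48.0 against 17.7 to 19.5 (1.19, SE 0.15). These 4 were above the standard range in all 3 libraries. SES1 had 599, 498 and 578 against 956.5 to 1007 (log2 change -0.81, SE 0.11), and MSE1 had 5.98, 5.87 and 5.35 against 11.3 to 14.7 (-1.17, SE 0.16). CDC60 had 732, 520.1 and 457 against 1220 to 1294 (-1.16, SE 0.16), and TYS1, the tyrosyl enzyme, had 237, 257 and 187 against 385 to 423 (-0.84, SE 0.13). All 3 DualLigation libraries were below the standard range in these 4. Partners for the same amino acid did not move together as a rule. Both lay above the standard range for tryptophan and isoleucine. Both lay below it for leucine and serine, where DIA4 had 3.42, 2.06 and 0 against 8.52 to 11.2. For tyrosine MSY1 was above (20.5, 34.8 and 39.9 against 13.5 to 17.97) while TYS1 was below. For threonine THS1 was above and MST1 below. For phenylalanine FRS2 and MSF1 were above and FRS1 below. In the other pairs at least 1 partner overlapped the standard range. SLM5 passed with an adjusted p = 0.0453 in edgeR, which rested on replicate 2 (30.2, against 11.3 and 11.6 in the others), and without that library its log2 change was 0.22 (adjusted p = 0.322).

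**Figure D5:**
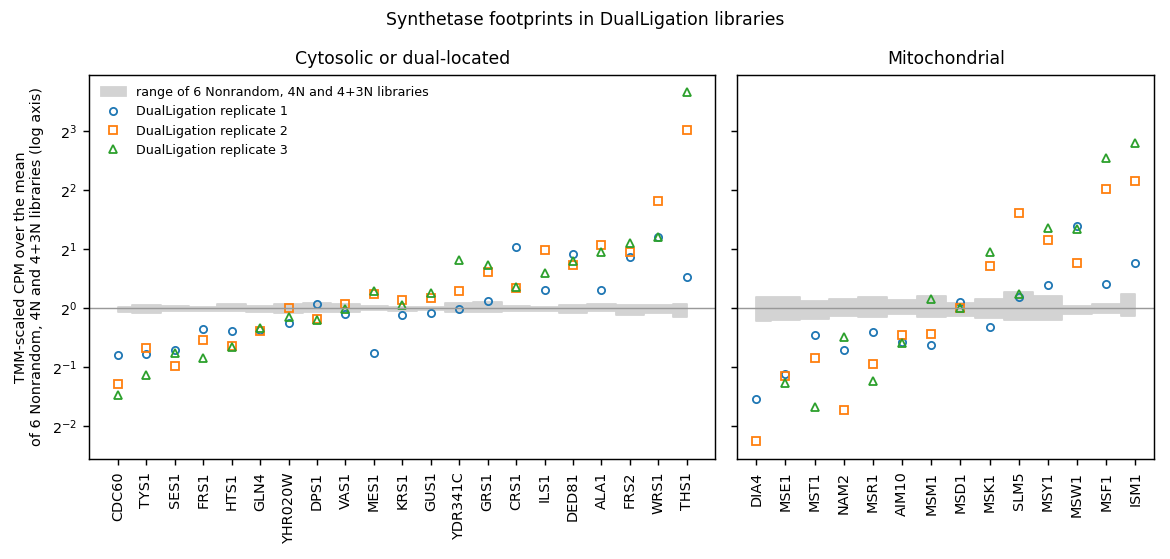
Synthetase footprints in the 3 DualLigation libraries (symbols) as multiples of the mean of the 6 Nonrandom, 4N and 4+3N libraries (log axis, TMM-scaled CPM). The grey band is the range of those 6 libraries. Members lie on both sides of the band in each set, with THS1 furthest above it at 12.7 times in replicate 3, and DIA4 in replicate 3 has 0 reads and no symbol.

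The sets did not overlap in DualLigation either, but their nearest members were closer. The lowest cytosolic over the highest mitochondrial gene was 3.42 ± 0.835 (n = 3), against 9.44 ± 0.490 in the 6 standard libraries, with no overlap between these libraries. The ratio of set medians per kb was 51.0, 41.4 and 55.6 in replicates 1, 2 and 3 (mean 49.3 ± 7.26), against 37.0 to 43.5 in the 6 standard libraries and 34.5 to 54.4 in the 4 low libraries. The ranges of the ratio of medians overlapped, and all 13 footprint libraries lay above the 6 mRNA libraries.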

How the data were processed

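Groups were taken from the sample titles. The authors deposited 1 table of raw counts per library, and genes not listed were set to 0. The submitters' processing notes name CASAVA 1.8, Bowtie 1.0.0 and sacCer3. The assignment of reads to genes, their strand and the rule for several alignments are not given in the sources used here, so reads of related sequences may be misassigned. The table of Nonrandom ribosome profiling replicate 1 lists 5559 genes 2 times, and the second list (11656814 reads, Pearson r 0.997 with replicate 2 across genes, against 0.959) was used.

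Genes were filtered with filterByExpr, TMM-scaled and tested in edgeR 4.0.16 under R 4.3.3 (quasi-likelihood F test, both directions, Benjamini-Hochberg adjusted over all tested genes, threshold 0.05). Standard errors are the absolute log2 change over the square root of F. Each fit held only the libraries of its comparison (footprint and mRNA libraries of Nonrandom, 4N and 4+3N for the ratio), without covariates. Levels are CPM, per kb of R64 length where genes are compared. Ratios within libraries were compared by exact permutation tests (scipy 1.17.1), without a replicate block. These ratios had been planned as descriptions without a test, and GRS1 over GRS2 was added to them. The 0.5 reads added before logs affect set medians only. Scripts were tested on simulated data. Floors of 3 counts cover counting error only.

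The members and lists were chosen with earlier results of these data known. All 35 members may be named, with values per library for the 3 highest and 3 lowest ratios of each set, FRS1, FRS2, the dual-located genes, up to 8 members by p elsewhere and the 3 widest and narrowest pairs. THS1, ISM1, MSF1, DIA4 and SLM5 in DualLigation were chosen after their values were seen. The directions of pairs in DualLigation were also described after the values were seen.

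Equal replicate numbers deviated together in footprints (correlations of deviations 0.232 to 0.399, 3 of 3 pairs of groups above 0.1), in mRNA (0.107 to 0.251, 3 of 3), so a replicate block was run. Between assays 0 of 9 pairs were above 0.1 and in the low fit 3 of 6. Alternatives were RLE scaling, DESeq2 1.42.0, no filter, the first count list, leaving out each library, low libraries as footprints, and, chosen after seeing the data, library totals and DualLigation replicate 1 alone.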

Additional observations from a re-analysis of the deposited data

How the results depend on the processing

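Counts of members kept their side under RLE scaling, no filter and DESeq2. The exceptions among the set values came from scaling and from the first count list. With library totals 2 cytosolic genes had a lower footprint to mRNA ratio (WRS1 -0.12, GRS1 -0.35, with FRS1 at -0.047), and in DualLigation ILS1 lay at -0.022 and GRS1 at -0.18. A plain ratio of levels, without a model, was also taken (mean log2 CPM per kb in footprints minus mRNA within each preparation, with all genes limited to 5063 with at least 10 reads in each of 12 libraries), so its values differ from the edgeR medians. On library totals the median of this plain ratio was 0.24 in the cytosolic set, -1.41 in the mitochondrial set and -0.53 over all genes, and with TMM factors applied 0.79, -0.86 and 0.021. Relative to all genes both scalings gave 0.77 and -0.88, which follows by construction because a library's scaling factor shifts all its genes equally. With the first count list of Nonrandom replicate 1 the cytosolic to mitochondrial distance in footprints was 5.14 (log2) against 5.37, and the plain ratios on library totals were 0.30, -1.15 and -0.34 (against the 0.24, -1.41 and -0.53 above), or 0.64 and -0.81 relative to all genes. The edgeR medians with that list were 0.62, -0.82 and -0.02. The numbers of passing genes were then 17 cytosolic and 13 mitochondrial for the ratio and 18 members in DualLigation. With the replicate block 1 member passed for 4+3N against Nonrandom in footprints, and no other call of a member changed.

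Leaving out 1 library at a time gave 21 cytosolic genes with a higher ratio and 13 to 14 mitochondrial genes with a lower one, and 24 to 30 members in DualLigation. The set distances were 5.36 to 5.40 in footprints and 3.67 to 3.70 in mRNA. Low libraries in place of standard ones lost GRS1 (adjusted p = 0.0618) and MSY1 (0.0627). SLM5 in DualLigation was lost on leaving out any of the 6 standard libraries (adjusted p 0.0601 to 0.0969). DualLigation replicate 1 alone, assumed to vary like the other libraries, gave 24 members, and GRS1, MSY1, MSR1 and SLM5 were then lost. The causes were not tested. Mitochondrial members had 33 to 318 reads per library in standard footprints and mRNA and cytosolic ones 634 to 21055.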

Other observations

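The 2 count lists of Nonrandom ribosome profiling replicate 1 differed more at the cytosolic than at the mitochondrial synthetases. The first list never exceeded the second (0 of 5559 genes, 378 equal) and held 3520161 reads against 11656814. The first list held 0.241 to 0.524 of the second list's reads at the cytosolic members and 0.85 to 0.940 at the mitochondrial ones. Over all genes the median was 0.970 below 100 reads and 0.510 at 1000 reads and more.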
